A study of Mus musculus with 16 samples.

Results

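The 10 genes described here are transcription factors of the lung mesenchyme: Tcf21, Foxf1, Tbx2, Tbx4, Tbx5, Meox2, Gli1, Gli2, Gli3 and Klf4. They were taken by symbol, each from the array probe whose transcript accession belongs to that gene. The rule used no measured value, but the list was drawn up with earlier results of these data known. In at least 1 group every array read each of these probes well above background, so all 10 stood among the 15394 genes tested, with 1 probe each.

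RNA was measured on 1-colour Agilent arrays in primary lung fibroblasts, isolated from lungs by enzymatic digestion and held in culture. The study asked how loss of meflin, the product of Islr and a protein anchored to the fibroblast surface, alters the response of these cells to TGF-β1, the cytokine that drives fibroblasts towards contractile, matrix-producing myofibroblasts. The 4 groups, with 4 arrays each, were meflin knockout cells with recombinant TGF-β1 at 5 ng/ml for 48 h, meflin knockout cells with vehicle, wild type cells with the same TGF-β1 treatment, and wild type cells with vehicle. All samples were labelled as female and 8 weeks old, and wild type was C57BL/6J. How the knockout was made and its strain background are not given in the sources used here, and no sorting step is stated for the cells. The design text gives 4 independent experiments per group without tying arrays to mice, so p-values reflect no more than array-to-array spread, and their precision is limited by having 4 arrays a group.

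Such factors help the mesenchyme to shape the lung. Tbx4 and Tbx5 are T-box factors expressed in lung mesenchyme from its first budding, where they support Fgf10, the growth factor that drives branching of the epithelium, and Tbx2 is a repressor of the same family. Foxf1 is a forkhead factor of mesenchyme around the gut tube and lung. Tcf21 is a basic helix-loop-helix factor that marks lipid-storing fibroblasts of the alveolus. The Gli proteins are the zinc finger factors at the end of the hedgehog pathway: Gli2 is the main activator, Gli3 acts largely as a repressor, and Gli1 is an activator that is itself transcribed when the pathway is on. Meox2 is a homeobox factor known for growth arrest in vascular cells, and Klf4 is a zinc finger factor that restrains smooth muscle genes in cultured vascular cells.

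In knockout cells TGF-β1 lowered 8 of the 10 factors and raised 1, Foxf1, while Gli3 did not pass the test, where 35.9% of all genes fell and 46.6% rose. In wild type cells it lowered 7 and raised 1, Tcf21, where 27.3% of all genes fell and 41.3% rose, but most of these changes were small. Tested directly, 7 factors (Tcf21, Tbx2, Tbx4, Tbx5, Meox2, Gli1 and Gli2) responded more negatively in knockout than in wild type cells, as did 26.5% of all genes, and Foxf1 responded more positively, as did 31.7%. Klf4 fell in both genotypes, with no difference in response that passed the test. Sequences from the start regions of 3 of the factors with a more negative response, and of Klf4 for contrast, are given next.

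Promoter sequences, 250 bases before to 50 bases after the annotated start, are those of RefSeq on the mouse build GRCm38.p6 and were found for 6 of the 10 genes (Tcf21, Tbx4, Meox2, Gli2, Gli3 and Klf4). They are read 5′ to 3′ along the gene, and capitals mark the GC box GGGCGG and the TATA box TATAAA on either strand. Tcf21 is at chr10:22820094-22820393 on the minus strand, Tbx4 at chr11:85896515-85896814 on the plus strand, Meox2 at chr12:37108290-37108589 on the plus strand, and Klf4 at chr4:55532426-55532725 on the minus strand.
Tcf21: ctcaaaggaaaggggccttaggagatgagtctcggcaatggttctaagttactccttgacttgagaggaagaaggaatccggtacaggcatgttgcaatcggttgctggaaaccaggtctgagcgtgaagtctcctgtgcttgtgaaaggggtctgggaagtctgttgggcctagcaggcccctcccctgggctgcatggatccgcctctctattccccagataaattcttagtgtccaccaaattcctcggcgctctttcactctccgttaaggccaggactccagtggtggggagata
Tbx4: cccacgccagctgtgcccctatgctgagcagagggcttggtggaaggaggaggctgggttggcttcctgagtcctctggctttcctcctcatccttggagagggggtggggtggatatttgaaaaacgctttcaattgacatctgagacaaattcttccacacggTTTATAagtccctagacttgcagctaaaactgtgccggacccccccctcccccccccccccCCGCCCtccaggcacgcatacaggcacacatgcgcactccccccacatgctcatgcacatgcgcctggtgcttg
Meox2: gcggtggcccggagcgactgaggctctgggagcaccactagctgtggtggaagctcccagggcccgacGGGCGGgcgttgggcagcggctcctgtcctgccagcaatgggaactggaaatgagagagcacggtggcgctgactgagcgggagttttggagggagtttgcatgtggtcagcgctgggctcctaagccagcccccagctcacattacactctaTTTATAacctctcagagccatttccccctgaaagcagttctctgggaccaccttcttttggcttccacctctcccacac
Klf4: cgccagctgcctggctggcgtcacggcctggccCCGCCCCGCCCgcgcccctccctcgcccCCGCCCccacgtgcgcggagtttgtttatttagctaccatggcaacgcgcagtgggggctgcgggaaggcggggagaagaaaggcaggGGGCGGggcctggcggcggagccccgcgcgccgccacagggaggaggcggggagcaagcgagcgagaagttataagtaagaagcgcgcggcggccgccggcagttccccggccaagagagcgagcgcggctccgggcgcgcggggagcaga

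The 3 promoters of factors that responded more negatively in the knockout were poorer in GC than that of Klf4. GC content was 53.3% in Tcf21, 59.0% in Tbx4 and 60.7% in Meox2, against 74.3% in Klf4, and the number of CpG pairs was 8, 8 and 12 against 40. Gli2, which also responded more negatively in knockout cells, had 67.3% GC and 28 CpG pairs. Gli3, with no called difference in response, had 71.0% and 39. The 4 genes with a more negative response thus had less GC and fewer CpG pairs than Gli3 and Klf4, which is a description of 6 genes and was not tested. The median over all 32851 promoters was 52.7% GC and 7 CpG pairs. A TATA box on the minus strand began at position -29 in Meox2 and at -85 in Tbx4, with the annotated start counted as 0, and 13.6% of all promoters held 1 on either strand. The Tcf21 window held no GC box, TATA box or CACCC box (CCACCC, in 31.5% of promoters), while the Klf4 window held 4 GC boxes, 2 of which overlap by 1 base, and 35.7% of all promoters held at least 1. None of the 6 windows held the GLI site GACCACCCA (0.253% of all promoters), the T-box half-site GGTGTGA (3.98%), the forkhead site GTAAACA (3.65%), the SMAD palindrome GTCTAGAC (0.213%), the CAGA box CAGACA (21%) or CCAAT (37.4%) on either strand. These are matches of letters in a short window, not measured binding sites.

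Each of 2 slides carried 2 arrays per group. Intensity at the 75th percentile was 382 to 446 on knockout TGF-β1 arrays, 470 to 519 on knockout vehicle arrays, 429 to 452 on wild type TGF-β1 arrays and 486 to 526 on wild type vehicle arrays, and levels below are scaled so that these percentiles match. The targeted gene Islr failed to rise well above background on the 8 knockout arrays and was well above it on the 8 wild type arrays. In wild type cells Islr itself fell with TGF-β1, from a mean scaled intensity of 1806.5 to 323.8 (log2 difference -2.48). It was at least 19.7-fold lower in knockout with TGF-β1 and at least 138-fold lower with vehicle, bounds that start from these different wild type levels. Such a bound divides the mean of the bright group by that of the dim group, in which each array counts with the probe's signal or with its lowest signal well above background, whichever is higher. Islr has 1 probe, which could lie outside the deleted part. All 8 fibroblast markers examined were well above background on every array.

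TGF-β1 reached much of the transcriptome, so counts of changed factors have to be read against that. In knockout cells 9 of 10 factors changed at an adjusted p under 0.05 in limma, against 82.5% of all genes tested. The 8 falls compare with falls in 35.9% of all genes and the 1 rise with rises in 46.6%. A fall of at least 2-fold was seen in 4 factors (Meox2, Gli1, Tbx4 and Gli2) and in 13.6% of all genes. With normexp background correction that fall was left in Meox2 and Tbx4 alone, 2 factors against 7.28% of all genes, and with quantile normalization it was seen in 6, with Klf4 and Tbx2 added (13.5% of all genes). The median log2 difference over the 10 factors was -0.90, against 0.10 over all genes. In wild type cells 8 of 10 factors changed, against 68.6% of all genes, with 7 falls (27.3% of all genes) and 1 rise (41.3%), and medians of -0.18 and 0.08. None of the factors fell 2-fold in wild type cells, where 6.45% of all genes did, although Meox2 passed that line with quantile normalization and in the authors' values (-1.03 each) and within slide 2 (-1.01). The knockout arrays with TGF-β1 did not overlap the knockout vehicle arrays for any of the 10 factors, which held for 77.1% of all genes. In wild type cells the treated and vehicle arrays did not overlap for 6 of the 10, against 62.9% of all genes. With quantile normalization in place of the matched 75th percentile, the median of all genes in knockout cells was -0.01.

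**Figure D1:**
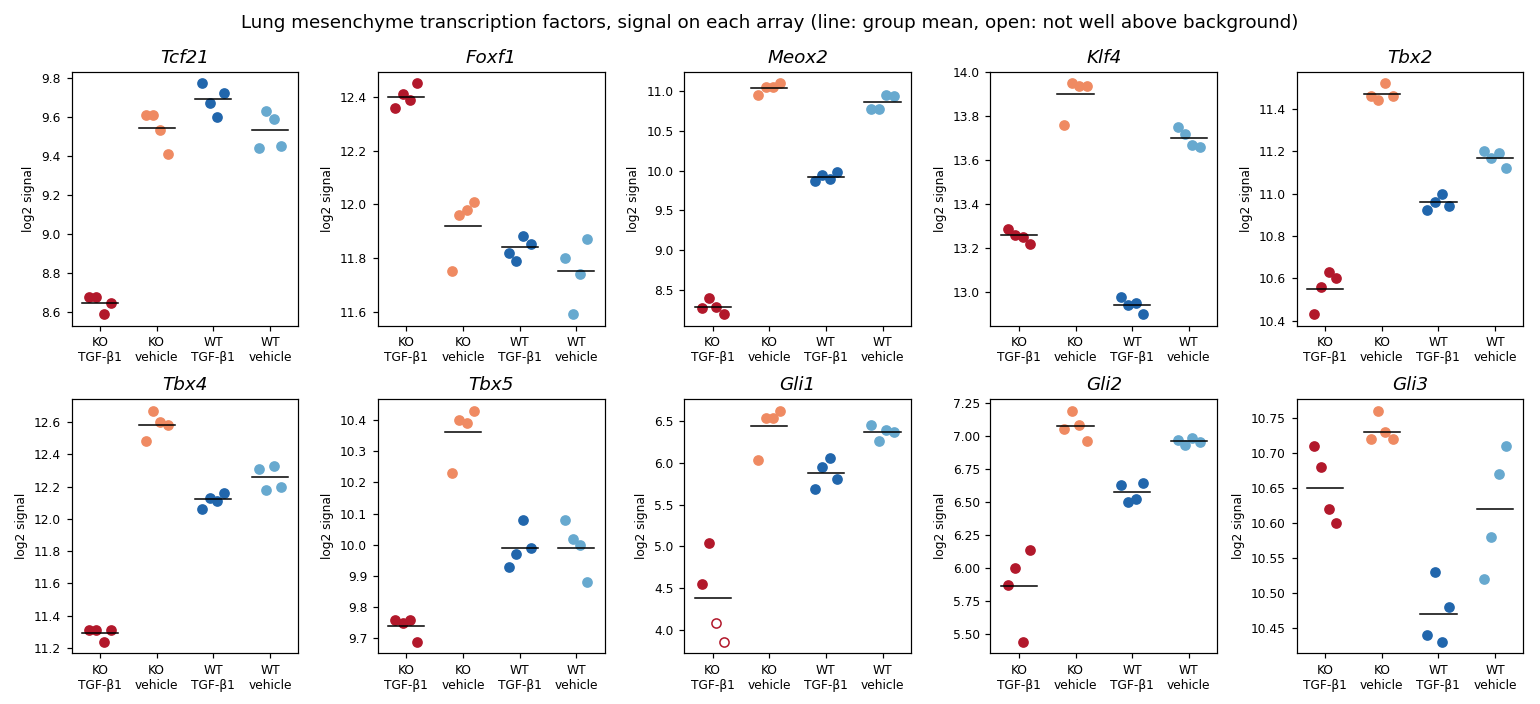
Log2 signal of each of the 10 transcription factors on every array (vertical axis, scaled to a common 75th percentile), with the 4 groups side by side, 1 point per array (open where not well above background, as for Gli1 on 2 knockout TGF-β1 arrays) and a line at the group mean; each panel has its own range because levels are not compared between probes. The knockout TGF-β1 points are the lowest group for Tcf21, Tbx2, Tbx4, Tbx5, Meox2, Gli1 and Gli2 and the highest for Foxf1.

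Meox2 had the largest fall of the 10 in both genotypes. Its scaled intensity was 309, 336, 311 and 293 on the knockout TGF-β1 arrays, against 1979.7, 2114, 2136 and 2189.7 on the knockout vehicle arrays. It was 937, 986, 956 and 1008 on the wild type TGF-β1 arrays, against 1760.2, 1764, 1994 and 1958 on the wild type vehicle arrays. Every treated array lay below every vehicle array of its genotype, and every treated knockout array lay below every treated wild type array. The fall was 6.75-fold in knockout cells (log2 difference -2.75 ± 0.05 SE, adjusted p = 8.27e-16) and 1.92-fold in wild type cells (-0.94 ± 0.05, adjusted p = 6.7e-10). The difference between these responses was -1.81 ± 0.07 (adjusted p = 4.91e-11), and it was -1.79 and -1.83 within slides 1 and 2. In this bulk RNA, fewer cells that carry a transcript and less of it per cell cannot be told apart, here and for every other gene.

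Among the T-box genes, Tbx4 and Tbx2, which are next to each other on chromosome 11, moved in the same order of groups. Tbx4 stood at 2544, 2546, 2417 and 2544 on the knockout TGF-β1 arrays, against 5715, 6502, 6197 and 6117 on the knockout vehicle arrays. The wild type values were 4279, 4494.5, 4413 and 4582 with TGF-β1 and 5091, 4655, 5139.9 and 4703 with vehicle. The knockout groups enclosed the wild type groups, with vehicle above and TGF-β1 below, and no neighbouring groups overlapped. Tbx4 fell 2.44-fold in knockout cells (-1.29 ± 0.05, adjusted p = 8.05e-13), against 1.1-fold in wild type cells (-0.14 ± 0.05, adjusted p = 0.0131), and the responses differed by -1.15 ± 0.06 (adjusted p = 1.4e-09). The small wild type fall did not pass within slide 1 or slide 2 alone, at -0.15 and -0.13, whereas quantile normalization and the authors' values both gave -0.28 (adjusted p = 2.6e-05 and 3.95e-05).

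Tbx2 showed the same nesting of groups at a smaller size. It read 1383, 1507, 1586 and 1548 on the knockout TGF-β1 arrays, against 2822, 2776, 2935 and 2824 on the knockout vehicle arrays. In wild type cells it read 1944, 1997, 2049.9 and 1969.5 with TGF-β1, against 2347, 2302, 2340.4 and 2225 with vehicle. No pair of neighbouring groups overlapped. The fall was 1.89-fold in knockout cells (-0.92 ± 0.04, adjusted p = 1.26e-11) and 1.16-fold in wild type cells (-0.21 ± 0.04, adjusted p = 0.000313), and the responses differed by -0.71 ± 0.06 (adjusted p = 9.27e-08).

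Tbx5 fell in knockout cells, and its wild type groups overlapped. Its intensity was 865, 862, 866 and 828 on the knockout TGF-β1 arrays, against 1200.1, 1352, 1343 and 1384 on the knockout vehicle arrays. The wild type arrays gave 972, 1002, 1080.3 and 1019 with TGF-β1 and 1079.6, 1041, 1024 and 942 with vehicle. All knockout TGF-β1 values were the lowest of the 16 and all knockout vehicle values the highest. The log2 difference was -0.62 ± 0.05 in knockout cells (adjusted p = 2.03e-08) and 0.00 in wild type cells, with a 95% interval of -0.11 to 0.11 (adjusted p = 0.955). The responses differed by -0.62 ± 0.07 (adjusted p = 4.09e-06).

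Tcf21 moved in opposite directions in the 2 genotypes. Its intensity was 410.5, 410.1, 386 and 401 on the knockout TGF-β1 arrays, against 782, 782, 738 and 682 on the knockout vehicle arrays. The wild type arrays gave 873.5, 817, 777 and 845 with TGF-β1, against 693, 792, 768 and 698.5 with vehicle. The treated knockout arrays stood apart below the other 12, which overlapped with one another. Tcf21 fell 1.85-fold in knockout cells (-0.89 ± 0.06, adjusted p = 7.99e-10) and rose 1.12-fold in wild type cells (0.17 ± 0.06, adjusted p = 0.016), and the responses differed by -1.06 ± 0.08 (adjusted p = 3.61e-08). The wild type rise did not pass the test in 6 of 26 alternatives, namely each slide alone (0.19 and 0.15), normexp background correction (0.11, adjusted p = 0.0638), and without wild type TGF-β1 replicate 1, wild type vehicle replicate 1 or wild type vehicle replicate 4 (0.14 each).

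Foxf1 was the factor that rose in knockout cells. It read 5253, 5439, 5358 and 5594 on the knockout TGF-β1 arrays, against 3434, 3996, 4037 and 4112 on the knockout vehicle arrays. The wild type arrays read 3622, 3532, 3779.9 and 3698 with TGF-β1, against 3565, 3092, 3422 and 3739 with vehicle. The treated knockout arrays were the 4 highest of the 16. Foxf1 rose 1.39-fold in knockout cells (0.48 ± 0.06, adjusted p = 3.46e-06), or by 0.20 with quantile normalization. In wild type cells the difference was 0.09 with a 95% interval of -0.05 to 0.22 (adjusted p = 0.23), and -0.04 with quantile normalization, and the responses differed by 0.39 ± 0.09 (adjusted p = 0.00134), or by 0.23 with quantile normalization.

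**Figure D2:**
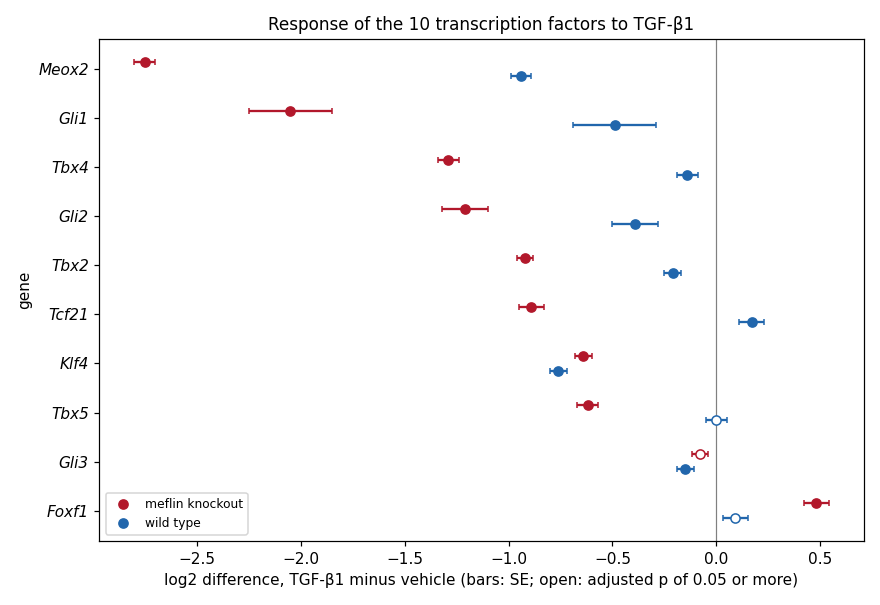
Log2 difference between TGF-β1 and vehicle (horizontal axis) for each factor in meflin knockout cells (upper marker of each pair) and wild type cells (lower marker), with bars of 1 SE from the limma fit and open markers where the adjusted p was 0.05 or more. Meox2 lies farthest to the left in both genotypes, at -2.75 and -0.94, and the markers of Klf4 and of Gli3 lie close together.

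The 3 Gli genes did not move together. Gli1 and Gli2 fell in both genotypes, and in knockout cells the fall was larger, while Gli3 stayed near its vehicle level. Gli1 stood at 23.5, 32.9, 16.9 and 14.5 on the knockout TGF-β1 arrays, against 65.8, 93.1, 92.8 and 99.1 on the knockout vehicle arrays. In wild type cells it was 51.7, 62, 66.8 and 55.9 with TGF-β1, against 87.9, 76.9, 84.3 and 82.7 with vehicle. The treated and vehicle arrays did not overlap in either genotype, but Gli1 was well above background on only 2 of the 4 knockout TGF-β1 arrays. The fall was 4.15-fold in knockout cells (-2.05 ± 0.20, adjusted p = 1.53e-07) and 1.41-fold in wild type cells (-0.49 ± 0.20, adjusted p = 0.0408), with a difference of -1.56 ± 0.28 (adjusted p = 0.000266). Within slides 1 and 2 that difference was -0.96 (adjusted p = 0.0524) and -2.16, and with normexp background correction the falls were -0.68 and -0.18. The wild type fall of Gli1 did not pass in 12 of 26 alternatives, among them those without wild type TGF-β1 replicate 1, 2 or 4 (-0.43, -0.52 and -0.47) or without any single wild type vehicle array (-0.47 to -0.53).

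Gli2 gave the same order of groups. It read 58.5, 63.9, 43.5 and 69.8 on the knockout TGF-β1 arrays, against 132.5, 145.5, 135 and 124 on the knockout vehicle arrays. With TGF-β1 the wild type arrays read 99, 90.6, 91.5 and 99.6, against 125, 122, 126 and 124 with vehicle. Treated arrays lay below vehicle arrays in each genotype, and the vehicle arrays of the genotypes overlapped. Gli2 fell 2.31-fold in knockout cells (-1.21 ± 0.11, adjusted p = 4.31e-08) and 1.31-fold in wild type cells (-0.39 ± 0.11, adjusted p = 0.00472), with a difference of -0.82 ± 0.15 (adjusted p = 0.000272). With normexp background correction these values were -0.56, -0.25 and -0.31, and within slide 2 alone the wild type fall and the difference did not pass (adjusted p = 0.155 and 0.0551).

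Gli3 differed little between treated and vehicle cells. It read 1679, 1644, 1576 and 1547 on the knockout TGF-β1 arrays, against 1683, 1728.5, 1696 and 1686 on the knockout vehicle arrays. The wild type values were 1385, 1477, 1382 and 1430.2 with TGF-β1 and 1466, 1529.7, 1633 and 1679.5 with vehicle. The knockout groups were close without overlapping, and the wild type groups overlapped. The log2 difference was -0.08 in knockout cells (95% interval -0.17 to 0.02, adjusted p = 0.119), or -0.23 with an adjusted p of 0.000114 under quantile normalization. The wild type fall was -0.15 ± 0.04 (adjusted p = 0.00649), at -0.07 within slide 1 (adjusted p = 0.388), -0.24 within slide 2 and -0.23 under quantile normalization. The difference between the responses was 0.08 with a 95% interval of -0.06 to 0.21, or 0.00 under quantile normalization.

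Klf4 fell in each genotype. It stood at 9992, 9831, 9748 and 9551 on the knockout TGF-β1 arrays, against 13917, 15777, 15694 and 15764 on the knockout vehicle arrays. The wild type arrays gave 8055, 7869, 7910.3 and 7669.8 with TGF-β1, against 13739, 13477, 13074.5 and 12932 with vehicle. All 4 groups were separate from one another. The fall was 1.56-fold in knockout cells (-0.64 ± 0.04, adjusted p = 9.64e-10) and 1.69-fold in wild type cells (-0.76 ± 0.04, adjusted p = 4.47e-10). The responses differed by 0.11 with a 95% interval of -0.01 to 0.24 (adjusted p = 0.108), and by -0.11 (adjusted p = 0.214) under quantile normalization, where the fall in knockout cells was -1.06.

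Without TGF-β1, the differences between genotypes in these factors were small in size, at most 0.37 on the log2 scale, but rises were more frequent than over all genes. With vehicle, 5 of the 10 were higher in knockout than in wild type cells and none was lower at an adjusted p under 0.05, against 13.2% of all genes changed, 7.07% upward and 6.16% downward. None was 2-fold lower, as were 0.247% of all genes. The median difference was 0.17 over the factors and 0.03 over all genes. The 3 T-box genes rose most: Tbx5 by 0.37 ± 0.05 (adjusted p = 0.000257), Tbx4 by 0.32 ± 0.05 (adjusted p = 0.00026) and Tbx2 by 0.30 ± 0.04 (adjusted p = 0.000206). Their knockout vehicle arrays all lay above their wild type vehicle arrays, as did those of Gli3 and Klf4, so that 5 of 10 factors did not overlap, against 18.8% of all genes. Klf4 rose by 0.20 ± 0.04 (adjusted p = 0.00509) and Meox2 by 0.17 ± 0.05 (adjusted p = 0.0449), and the rise of Meox2 did not pass in 14 of 26 alternatives. Among these were the fits without any single knockout vehicle array other than replicate 1 (0.15 to 0.17), without wild type vehicle replicate 1 or 2 (0.14 and 0.15), and without some TGF-β1 arrays, which alter only the shared spread. Foxf1 differed by 0.17 (adjusted p = 0.0812), and passed at 0.23 (adjusted p = 0.0115) without knockout vehicle replicate 1, its low array, and at 0.21 without wild type vehicle replicate 4. It also passed with normexp background correction (0.18, adjusted p = 0.0346) and with the slide as a block (0.17, adjusted p = 0.0446). Within slide 1 alone none of the 10 factors passed in limma, with 196 genes called over the transcriptome. In that slide the T-box differences were 0.26 for Tbx5, 0.32 for Tbx4 and 0.27 for Tbx2, against 0.47, 0.32 and 0.34 within slide 2.

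With TGF-β1 present, all 10 factors differed between genotypes, against 70.2% of all genes. Lower in knockout were 7 (30.5% of all genes), and higher were Foxf1, Gli3 and Klf4 (39.6% of all genes), with a median of -0.56 over the factors and 0.06 over all genes. The arrays of the genotypes did not overlap for any of the 10, against 64.7% of all genes. Meox2 was 3.12-fold lower in knockout cells (-1.64 ± 0.05, adjusted p = 1.09e-12), Gli1 2.82-fold lower (adjusted p = 8.97e-06, with 2 of 4 knockout arrays well above background), Tcf21 2.06-fold lower (-1.04 ± 0.06), Tbx4 1.77-fold lower (-0.82 ± 0.05) and Gli2 1.64-fold lower (-0.71 ± 0.11). Lower levels by at least 2-fold were thus seen in 3 factors and in 7.02% of all genes. With normexp background correction the differences were -0.40 for Gli1, -0.19 for Gli2 and -0.90 for Tcf21, and 1 factor, Meox2 at -1.45, was 2-fold lower, against 3.07% of all genes. Foxf1 was 1.48-fold higher (0.56 ± 0.06, adjusted p = 9.66e-07). Quantile normalization ended the calls of Klf4 and Gli3: Klf4 was higher by 0.31 ± 0.04 (adjusted p = 7.15e-06), against 0.10 (adjusted p = 0.0882), and Gli3 by 0.18 ± 0.04 (adjusted p = 0.00161), against 0.09 (adjusted p = 0.0727). The difference was -0.40 ± 0.04 for Tbx2 and -0.25 ± 0.05 for Tbx5 (adjusted p = 0.000493), and that of Tbx5 was -0.19 (adjusted p = 0.0593) within slide 1.

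**Figure D3:**
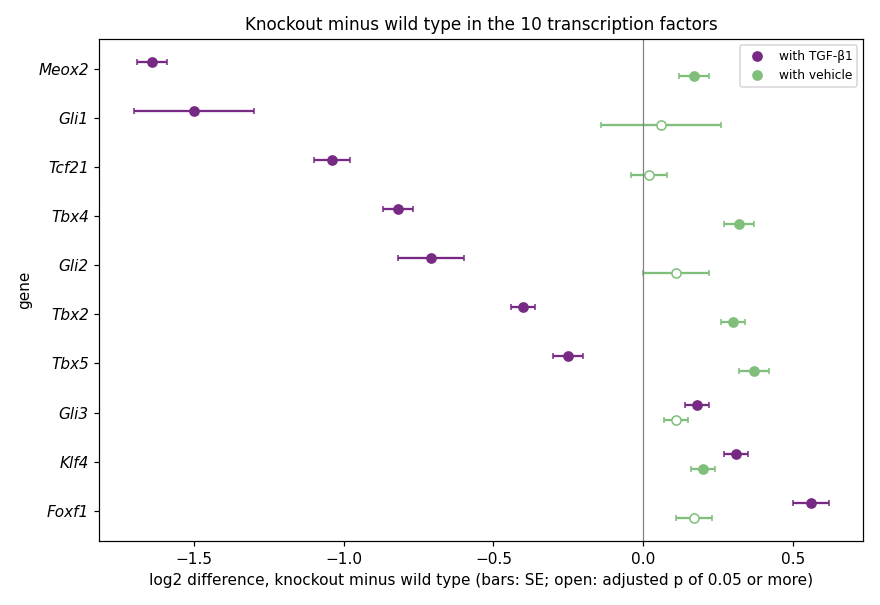
Log2 difference between meflin knockout and wild type cells (horizontal axis) for each factor, with TGF-β1 and with vehicle, bars of 1 SE from the limma fit and open markers where the adjusted p was 0.05 or more. With vehicle all 10 differences lie between 0.02 and 0.37, whereas with TGF-β1 they reach from -1.64 to 0.56.

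The difference between the responses of the genotypes was called for 8 of the 10 factors, against 58.2% of all genes. It was negative for 7 (26.5% of all genes) and positive for Foxf1 (31.7%), with a median of -0.76 over the factors and 0.05 over all genes. In 4 factors (Meox2, Gli1, Tbx4 and Tcf21) the response was at least 2-fold more negative in knockout cells, against 6.72% of all genes. Under normexp background correction this held for Meox2 and Tbx4 (2.83% of all genes), with Tcf21 at -0.91 and Gli1 at -0.50. Gli1 was at -0.96 within slide 1, and Tcf21 did not reach 2-fold within slide 2. This test uses the same arrays as the comparisons above, and the comparisons of TGF-β1 and of genotype share groups, so their values are given side by side and not as separate support.

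Because 3 members are the effectors of hedgehog signalling, the rest of that pathway was examined from a list of 25 genes, 23 of which were tested. TGF-β1 raised 4 and lowered 14 in knockout cells and raised 3 and lowered 10 in wild type cells, with medians of -0.32 and -0.07 against 0.10 and 0.08 over all genes. Of all genes, 46.6% rose and 35.9% fell in knockout cells, and 41.3% rose and 27.3% fell in wild type cells, so that the 18 of 23 called in knockout cells lie beside 82.5% of all genes and the 13 called in wild type cells beside 68.6%. The ligand Shh and the release factor Scube3 were not well above background in any group, and Dhh fell in knockout (-0.78 ± 0.11) and wild type cells (-0.90 ± 0.11). Ihh differed by -0.40 ± 0.23 in knockout cells (adjusted p = 0.121) and fell by 0.91 on the log2 scale in wild type cells (adjusted p = 0.00274), while normexp background correction gave 0.07 and -0.10, neither of which passed the test (adjusted p = 0.369 and 0.197). Scube1, another helper of ligand release, fell at least 9.57-fold in knockout and at least 10.1-fold in wild type cells.

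The co-receptors that present ligand fell in both genotypes, and their differences between genotypes varied. Gas1 fell in knockout cells (-3.28 ± 0.08, adjusted p = 1.4e-14) and in wild type cells (-0.65 ± 0.08, adjusted p = 4.97e-06), and the responses differed by -2.63 (adjusted p = 9.06e-11). Cdon fell in knockout cells (-1.06) and in wild type cells (-0.73), with a difference of -0.33 (adjusted p = 0.00133), but its other probes fell by less in knockout cells (-0.67 and -0.49) and gave differences of 0.09 and 0.17. Boc fell in knockout (-0.36) and wild type cells (-0.42), and its responses differed by 0.06 (adjusted p = 0.471). The ligand-release factor Scube2 fell in knockout (-3.49) and wild type cells (-1.0) on its brightest probe, and other probes gave -2.75 and -2.27 in knockout cells. Its responses differed by -2.49, and by -1.62 and -1.5 on those other probes.

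Among the receptor, its antagonist and the signal transducer, the differences between genotypes were smaller than that of Gas1. Ptch1, the receptor and a transcriptional target of the pathway, fell in knockout (-1.17 ± 0.31) and wild type cells (-0.85 ± 0.31, adjusted p = 0.0238), where quantile normalization gave -0.69 (adjusted p = 0.0691) and normexp -0.13 (adjusted p = 0.116), a dimmer probe gave -0.45 in both, and the responses differed by -0.32 (adjusted p = 0.546). Hhip, a decoy receptor that is also a target, fell in knockout (-1.83 ± 0.12) and wild type cells (-2.25 ± 0.12). Its responses differed by 0.42 (adjusted p = 0.0411) on the brightest probe and by -0.05 on another. Smo, the membrane transducer, fell by 0.13 in knockout cells (adjusted p = 0.0155) and differed by 0.00 in wild type cells (adjusted p = 0.98), where quantile normalization gave -0.17 (adjusted p = 0.00104). Sufu, which holds Gli proteins in the cytoplasm, differed by 0.01 and 0.07 on its brightest probe, but other probes gave 1.45 and 1.65 in knockout cells, so its direction is uncertain.

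**Figure D4:**
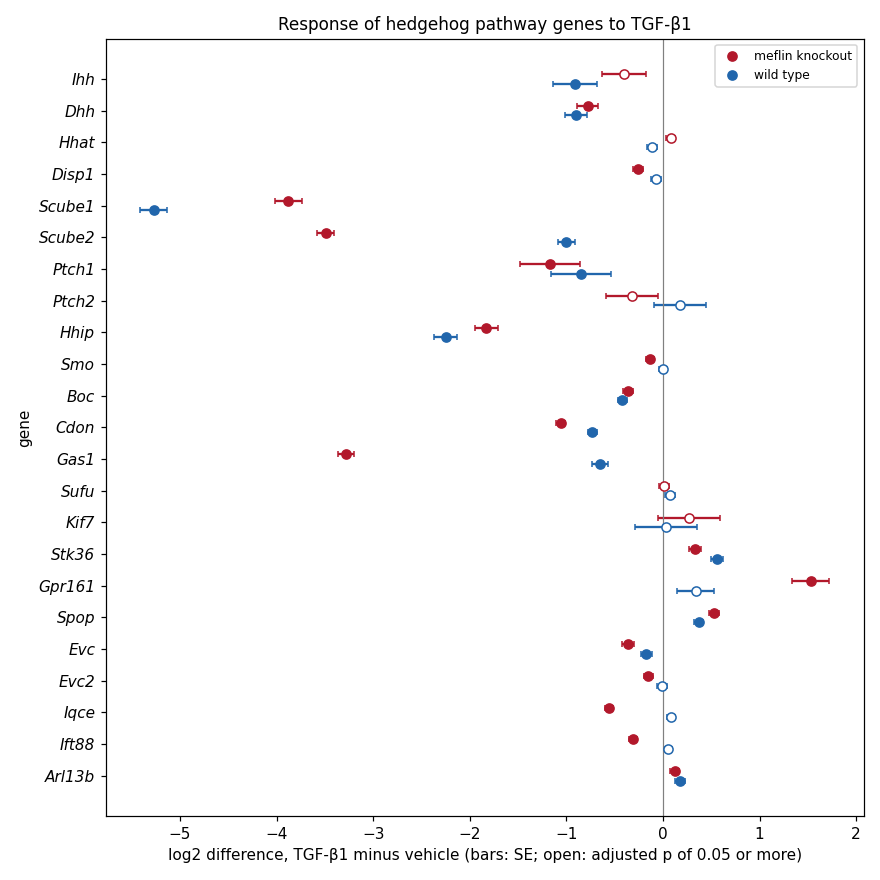
Log2 difference between TGF-β1 and vehicle for the 23 tested genes of the hedgehog list, in meflin knockout and wild type cells, with bars of 1 SE from the limma fit. Gas1 lies at -3.28 in knockout and -0.65 in wild type cells, and Scube2 at -3.49 and -1.0; Scube1 with TGF-β1 and Gpr161 with knockout vehicle were not well above background, so their points are fitted values only.

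Close relatives of the factors were compared from a list of 20 genes, 19 of which were tested. In knockout cells 9 rose and 8 fell with TGF-β1, and in wild type cells 4 rose and 4 fell, with medians of -0.09 and -0.02 against 0.10 and 0.08 over all genes. Those called were 17 in knockout cells, beside 82.5% of all genes, and 8 in wild type cells, beside 68.6%. Meox1, the relative of Meox2, differed by -0.22 ± 0.14 in knockout cells (adjusted p = 0.148) and fell by 1.75 in wild type cells (SE 0.14, adjusted p = 3.18e-08). Its responses differed by 1.53 (adjusted p = 9.82e-06), opposite in sign to Meox2. Tbx3 rose by 0.25 in knockout cells (adjusted p = 0.000346) and differed by 0.02 in wild type cells, but quantile normalization gave 0.01 (adjusted p = 0.871) and -0.08. Foxf2 rose by 0.30 in knockout cells and differed by 0.09 in wild type cells (adjusted p = 0.0944), the same signs as Foxf1. Among the Klf genes, Klf15 fell in knockout (-2.21) and wild type cells (-0.46), and Klf2 fell by 0.76 in knockout cells and differed by -0.08 in wild type cells (adjusted p = 0.234; -0.17 after quantile normalization, adjusted p = 0.0148). Klf9 rose in both, by 0.56 in knockout and 0.79 in wild type cells. Msc, a relative of Tcf21, was at background on every TGF-β1 array of either genotype, where it fell at least 1.67-fold in knockout and at least 2.27-fold in wild type cells.

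Genes linked to these factors in lung mesenchyme were taken from a list of 19, 18 of which were tested. In knockout cells 13 fell and 3 rose, and in wild type cells 13 fell and 1 rose, with medians of -2.02 and -0.75 against 0.10 and 0.08 over all genes. Among the rises in knockout cells, Plin2 (0.28) changed direction with the scaling. It gave -0.23 with quantile normalization (adjusted p = 2.12e-05) and in the authors' values (adjusted p = 4.58e-05), both in limma. Falls were called in 35.9% of all genes in knockout cells and 27.3% in wild type cells, and rises in 46.6% and 41.3%. Fgf10 fell in knockout (-2.86 ± 0.06, adjusted p = 3.46e-15) and wild type cells (-1.15 ± 0.06), and a dimmer probe gave -1.61 and -0.79. Bmp4, a growth factor of distal lung development, changed by -3.12 in knockout and -1.40 in wild type cells, and Pdgfra, the receptor that marks alveolar fibroblasts, by -2.21 and -0.44. Vegfd, a lymphatic growth factor, changed by -4.85 and -0.72, and the responses differed by -4.12 (adjusted p = 6.38e-13). Wnt2, a mesenchymal ligand that specifies lung, rose by 0.70 in knockout cells (adjusted p = 1.73e-08) and differed by 0.00 in wild type cells. Pparg, the lipid-storage factor, fell in knockout (-1.76) and wild type cells (-1.74), and Ces1d fell to background in each, at least 52-fold and at least 60.7-fold.

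The genes next to the factors on the chromosome were read from the RefSeq order, and a selection of them is given here. Gli2 and Gli3 each lie beside an activin subunit gene, and these moved apart. Inhbe, next to Gli1, was not among the genes tested, and the other neighbour of Gli1, Arhgap9, fell in knockout (-1.40) and wild type cells (-1.06). Inhbb, next to Gli2 on chromosome 1, fell in knockout (-1.86 ± 0.06) and wild type cells (-0.36 ± 0.06). Inhba, next to Gli3 on chromosome 13, rose by 2.90 ± 0.06 in knockout cells (adjusted p = 1.36e-15) and 0.34 ± 0.06 in wild type cells, beside Gli3 at -0.08 in knockout and -0.15 in wild type cells. On chromosome 5, Tbx3 and Tbx5 are neighbours and stood at 0.25 (0.01 after quantile normalization) and -0.62 in knockout cells, while on chromosome 11 Tbx2 and Tbx4 fell together (-0.92 and -1.29) and have Bcas3 and Brip1 as outer neighbours. Those gave -0.22 and -0.21 in knockout cells on the brightest probe and 0.57 and 0.32 on another, so their direction is uncertain. Agmo, next to Meox2, fell in knockout cells on its brightest probe (-2.23), and another probe gave -0.36. Irf8, next to Foxf1, fell in knockout (-0.60) and wild type cells (-0.52).

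**Figure D5:**
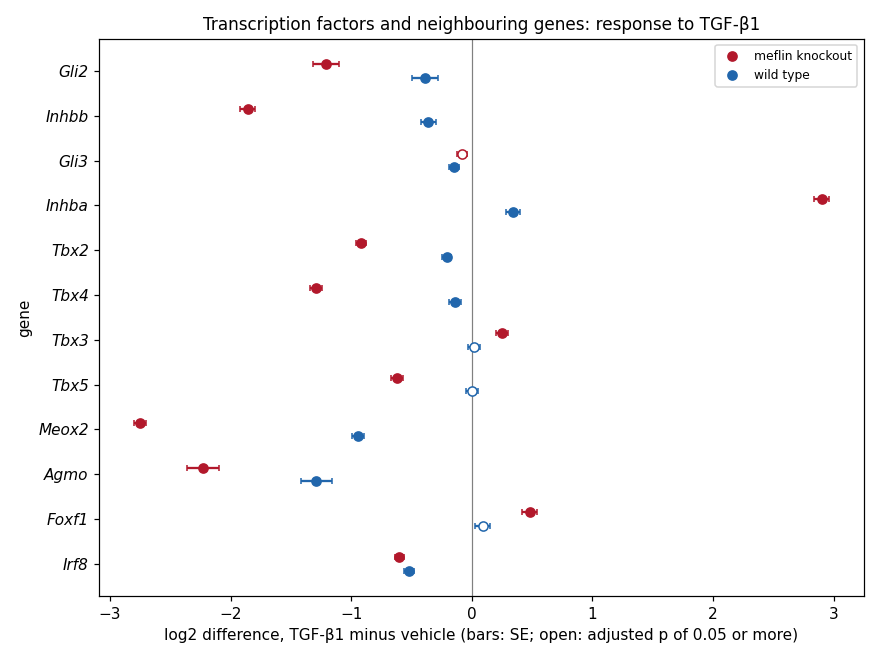
Log2 difference between TGF-β1 and vehicle for factors and genes beside them on the chromosome, a selection made after the values were seen, in meflin knockout and wild type cells, with bars of 1 SE from the limma fit. Inhba lies at 2.90 in knockout cells beside Gli3 at -0.08, and Inhbb at -1.86 beside Gli2 at -1.21.

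Markers of other cells that a lung digest can hold moved with treatment and genotype as well. The 7 endothelial markers all fell with TGF-β1 in each genotype (Pecam1 in wild type cells at -0.37, or -0.26 with an adjusted p of 0.0929 under quantile normalization), and their summed intensity was 1091 to 1197 in knockout TGF-β1, 2993 to 3188 in knockout vehicle, 1605 to 1708 in wild type TGF-β1 and 3473 to 3651 in wild type vehicle arrays. The 7 macrophage and leukocyte markers summed to 47463 to 51618, 69701 to 73465, 56486 to 60314 and 83611 to 98882 in these groups. Of them 5 fell in each genotype, while Marco, a scavenger receptor of alveolar macrophages, rose by 1.93 in knockout and 0.85 in wild type cells, and Itgam rose by 0.32 in knockout cells on its brightest probe but gave -0.38 on another. The 4 mesothelial markers summed to 9912 to 11351 in knockout TGF-β1 arrays, against 19400 to 20342 with knockout vehicle, and to 19391 to 20390 in wild type TGF-β1 arrays, against 22105 to 23311 with wild type vehicle. All 4 fell in knockout cells. In wild type cells Msln (-0.42) and Upk3b (-1.11) fell, while Wt1 (0.41) and Lrrn4 (0.15, or 0.04 under quantile normalization) rose. The endothelial, macrophage and mesothelial sums were each lowest in knockout TGF-β1 arrays, the group where the 7 factors were lowest. With vehicle, 1 of 7 endothelial, 4 of 7 macrophage and 2 of 4 mesothelial markers were lower in knockout than in wild type cells. None of these was higher, where 6.16% of all genes were lower and 7.07% higher. With TGF-β1, 5 of 7 endothelial, 3 of 7 macrophage and all 4 mesothelial markers were lower in knockout than in wild type cells, against 30.5% of all genes. Of the other macrophage markers, Itgam was higher on its brightest probe but gave -0.28 on another. Marco, Adgre1 and Csf1r did not pass, though quantile normalization gave -0.19 for Adgre1 and -0.20 for Csf1r. Of 7 epithelial markers, Epcam, Sftpa1 and Nkx2-1 were not well above background in any group, and the sum of the other 4 was 9445 to 10370, 5525 to 5747, 9663 to 10438 and 5849 to 6709. Of these, Krt8, Krt18 and Cdh1 rose in each genotype. Sftpc, the surfactant protein of alveolar type II cells, fell to background in knockout cells, by at least 17.2-fold (77.2-fold as fitted). In wild type cells its fitted fall was 27.8-fold, to a low mean log2 signal of 3.77. The bound in knockout cells is not to be compared with the fitted fall in wild type cells. The 6 pericyte and smooth muscle markers summed to 6117 to 6516 in knockout TGF-β1 arrays, against 4137 to 4368 with knockout vehicle, and to 4406 to 4535 against 3495 to 3804 in wild type cells. Within that list Notch3 (-1.33 in knockout and -0.40 in wild type cells) and Kcnj8 (-1.78 and -0.60) fell. The part of these cell types in the values of the factors was not tested. The 4 myofibroblast markers Acta2, Tagln, Cnn1 and Postn rose in each genotype with medians of 2.62 in knockout and 1.96 in wild type cells. TGF-β1 raised 4 and lowered 4 of the 8 fibroblast markers in knockout cells (46.6% and 35.9% of all genes). In wild type cells it raised 5 and lowered 3 (41.3% and 27.3%). With TGF-β1, 4 of the 8 were lower in knockout than in wild type cells (30.5% of all genes). Only Col1a1 was higher (0.16), and quantile normalization gave -0.09, beside 39.6% of all genes higher. The median was -0.41, against 0.06 over all genes.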

How the data were processed

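RNA of 16 cultures was measured on 1-colour Agilent arrays. The deposited files hold spot intensity on a linear scale written by Agilent Feature Extraction 11.0.1.1, per the file headers and the submitters' processing notes, background-subtracted inside that program. Its marks for outlier spots and for signal well above background (other values in the deposited files) were used as filters. The authors also deposited a log2 value table of 9933 probes, not centred per probe, with higher meaning brighter. How it was normalized and its probes chosen is not given in the sources used here. Its column medians were 6.38 to 6.39 for knockout TGF-β1, 6.57 to 6.59 for knockout vehicle, 6.47 to 6.49 for wild type TGF-β1 and 6.60 to 6.61 for wild type vehicle.

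Each array gave 59305 non-control spots for 56605 probes, 0 of them saturated. Log2 intensities were averaged over the spots of a probe, and arrays were shifted to a common 75th percentile. Outlier marks removed 27 probes. A probe was kept if every array of some group read it well above background, which 33888 probes met. Transcript accessions named 32994 of the probes through RefSeq (GRCm38.p6), and the brightest kept probe stood for each of 15394 genes. The array was designed on another build, so no probe coordinates are given. No level of 1 probe was set against another.

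Differences were fitted with limma 3.58.1 (R 4.3.3; files read with the data.table package, version 1.17.8), 1 coefficient per group over all 16 arrays, 2-sided, with Benjamini-Hochberg adjustment over all genes in each of 5 comparisons and an adjusted p under 0.05 called changed. Values after ± are SE of log2 differences. The fit was tested on simulated data. Promoters were read with Python 3.11.15. Named were the 10 factors, Islr, the listed pathway, relative, linked and marker genes, chromosome neighbours, and the 2 genes whose levels correlated best with each factor. Members and lists were chosen with earlier results of these data known. Alternatives tried were quantile normalization, normexp (offset 50, on the median spot signal), the authors' log2 values, no dim-probe filter, the mean of a gene's probes, only the compared groups, the slide or replicate number as a block, each slide alone, and each array left out.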

Additional observations from a re-analysis of the deposited data

Results flagged for a closer look

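Of 40 sets of 4 arrays (10 factors in 4 groups), 5 had an array far from the other 3 relative to the range of the set, and chance gives about 1 in 20. Replicate 1 of knockout vehicle was the low array for 3 factors. Its log2 signal was 11.75 for Foxf1 (the others 11.96 to 12.01), 6.04 for Gli1 (6.54 to 6.63) and 13.76 for Klf4 (13.94 to 13.95). In knockout TGF-β1 arrays, replicate 3 was low for Tbx4 at 11.24 (the others 11.31) and replicate 4 for Tbx5 at 9.69 (9.75 to 9.76). No explanation was tested for these arrays.

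The response to TGF-β1 differed between genotypes by a direct test in limma for 8 factors. Knockout minus wild type, the difference was -1.81 for Meox2, -1.56 for Gli1, -1.15 for Tbx4, -1.06 for Tcf21, -0.82 for Gli2, -0.71 for Tbx2, -0.62 for Tbx5 and 0.39 for Foxf1, where 58.2% of all genes passed the same test.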

How the results depend on the processing

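Over all alternatives and results, 1193 values kept their direction and side of the threshold, 46 lost the call, 6 gained it and 15 changed sign or became 0, none of them called in either setting. In the authors' table, which holds 4 of the factors and 5257 genes, 4 factors (4841 genes) changed with TGF-β1 in knockout cells, 3 (4376) in wild type cells, 2 (1160) between genotypes with vehicle, 4 (4213) with TGF-β1 and 4 (3825) in the difference between responses; fewer genes were tested there. Within slide 1, with 2 arrays per group, 0 factors (196 of 15394 genes) differed between genotypes with vehicle. In that slide 4 factors (8450 genes) changed with TGF-β1 in wild type cells, and 6 factors (5615 genes) differed in response. Within slide 2, 4 factors (1049 genes) differed with vehicle and 5 factors (9226 genes) changed with TGF-β1 in wild type cells. Leaving out each array in turn gave 9 to 9 factors in knockout cells (12396 to 12786 genes), 6 to 8 in wild type cells (10116 to 10685), 4 to 6 between genotypes with vehicle (1485 to 2084), 10 to 10 with TGF-β1 (10363 to 10906) and 8 to 8 in the difference between responses (8613 to 9050).

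Sign changes with quantile normalization were Foxf1 in wild type cells (-0.04) and the differences in response of Klf4 (-0.11) and Gli3 (0.00). Between genotypes with vehicle, Gli1 was -0.07 within slide 1 and Tcf21 -0.05 within slide 2, and leaving out an array gave -0.01 to 0.06 for Tcf21 and 0.00 to 0.20 for Gli1. Tbx5 in wild type cells was 0.10 within slide 2 and -0.04 to 0.02 with an array left out. Rises made up 54.5% of called differences in response, against 43.6% with quantile normalization. In the authors' table they made up 46.1% of calls in wild type cells, against 60.2% in the intensities, and 38.9% against 53.5% for genotype with vehicle.

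With the replicate number as a block, 9, 7, 5, 10 and 8 factors were called in the same order of comparisons. Over all 15394 genes the calls were 12842, 10791, 2301, 11061 and 9308. Gli1 in wild type cells kept -0.49 with an adjusted p of 0.0502. Deviations of arrays with the same number correlated at -0.034 to 0.145, and the highest correlation with another number was 0.009 to 0.135. For some arrays the same number was the best match and for others it was not. The numbers were not taken to pair the samples, and the block fit is given beside the main one. Probes near background, Gli1 above all, limit precision, and normexp shrank the knockout falls of Gli1 to -0.68 and of Gli2 to -0.56. The normexp offset of 50 is added to every signal and weighs most on dim probes. In the main scaling Gli1 read 14.5 to 99.1 and Gli2 43.5 to 145.5 over the arrays. How far the offset accounts for these smaller falls was not tested, and neither was the cause of the other shifts.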

Other observations

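The 2 genes whose log2 levels followed each factor most closely over the 16 arrays are given as a description, since all arrays share the same 4 groups. Meox2 was followed by Sod3, the extracellular superoxide dismutase (Pearson's r 0.9982), and Igsf10 (0.9976). Tcf21 was followed by Il6st, the shared receptor chain of the interleukin 6 family (0.9868), and by the basement membrane protein Nid2 (0.9855). Both fell with TGF-β1 in knockout cells (-1.52 and -1.83) and rose in wild type cells (0.27 and 0.42), the directions of Tcf21, but quantile normalization and the authors' values both gave 0.01 for Il6st in wild type cells. Tbx2 was followed by the protease Mmp9 (0.9940) and Spon2 (0.9877), Tbx4 by Dnmt3a (0.9916) and Klhl8 (0.9899), and Tbx5 by Cyp26b1, which degrades retinoic acid (0.9746), and Rassf7 (0.9552). Another Dnmt3a probe differed in response between genotypes by 0.06, against -1.08 on the brightest.

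Foxf1 was followed by Khdrbs3 (0.9773) and Mdm2, the ubiquitin ligase of p53 (0.9762), which both rose in knockout cells (1.34 and 0.41), although quantile normalization gave -0.06 for Mdm2 (adjusted p = 0.1). Gli1 was followed by Mamstr (0.9811) and Camkv (0.9750), and Gli2 by Cntn1 (0.9892) and Celf5 (0.9823), with another Cntn1 probe at -0.34 against -2.12 for the difference in response. Klf4 was followed by the neuropeptide Y receptor Npy1r (0.9873) and the chemokine receptor Ackr3 (0.9753). Gli3 had the lowest likeness, with Sucla2 (0.9249) and Bet1 (0.9097).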
